A study of Homo sapiens with 16 samples.

Results

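HCT116 cells, a line from a human colorectal carcinoma, were depleted of either UXT or EZH1 with siRNA and given tumour necrosis factor (TNF). The 2 RNA-seq libraries of those cells, siUXT TNF and siEZH1 TNF, are compared here directly with each other. They are 2 of the 16 samples of the study, taken by their labels, though earlier results of these data were known when the comparison was chosen. Another 4 RNA-seq libraries, siUXT PBS, siEZH1 PBS, NC TNF and NC PBS, stand beside them. PBS, by its usual meaning, is the saline given in place of TNF, and NC is the label of the cells that carry neither siRNA name, which the labels do not spell out further. The 10 chromatin samples are not analysed here. The line is a single established cancer line in culture, and the labels give no TNF dose, no time of exposure and no siRNA sequence. Each condition has 1 library, so no spread between replicates, p-value or standard error could be given for any difference below, and differences between separate transfections of the same siRNA cannot be told apart from differences between the siRNAs.

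UXT is a small prefoldin-like protein found in the nucleus and the cytoplasm. It belongs to the chaperone family that hands proteins to folding machines, and it is known as a partner of the NF-kB subunit RELA at promoters. EZH1 is a histone methyltransferase, the less active counterpart of EZH2. Together with SUZ12 and EED it forms Polycomb repressive complex 2 (PRC2), which methylates lysine 27 of histone H3. TNF binds its receptor on epithelial cells and releases RELA and NFKB1 from the inhibitor NFKBIA, after which NF-kB switches on chemokines, adhesion molecules and its own inhibitors. The title of the study places EZH1, SUZ12 and UXT together on the transcription of NF-kB targets, and the direct comparison asks how far the loss of either partner leaves the same RNA levels.

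Levels were deposited as FPKM, fragments scaled to transcript length and to the mapped fragments of the library, for 28502 gene symbols. Symbols that carried the same value in every library count as 1 locus. The comparison took the 11787 loci whose mean over both libraries reached 1 FPKM, of the 16370 loci above 0 in either, and 10960 of them were protein coding. A difference is given as log2(FPKM + 1) in siUXT minus log2(FPKM + 1) in siEZH1, so that a positive value means a higher level after UXT knockdown. At the level limit, NRG4, just inside with a mean of 1.00 FPKM, differed by 0.36, and PRIMA1, just outside with a mean of 0.998 FPKM, by -0.26. Sums of FPKM over all symbols lay between 617998 and 649481 in the 6 libraries. Judged from the size of the smallest steps between low values, siUXT TNF held 1.33 times the fragments of siEZH1 TNF. Epithelial markers were high in both libraries, with KRT8 at 788 FPKM in siEZH1 TNF and 934 FPKM in siUXT TNF and 6 of 8 markers at or above 1 FPKM, while the intestinal markers CDX1 and VIL1 were at or near 0. Leukocyte markers summed to 3.13 FPKM in siEZH1 TNF and 2.84 FPKM in siUXT TNF over 10 genes, and markers of fibroblasts and endothelium to 7.57 and 8.76 FPKM over 10 genes, most of it COL1A1.

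The siRNA targets separated both libraries in opposite directions. UXT was listed at 62.2 FPKM in NC PBS, 59.6 in NC TNF, 64.9 in siEZH1 PBS, 77.1 in siEZH1 TNF, 27.7 in siUXT PBS and 24.6 in siUXT TNF. It was lowest in both siUXT libraries, highest in siEZH1 TNF, and at or above 59.6 FPKM in every library without UXT siRNA. UXT in siUXT TNF was 0.32 times its level in siEZH1 TNF, a log2 difference of -1.61, the second lowest of the 10960 protein-coding loci after RPSAP58. EZH1 stood at 5.45 FPKM in NC PBS, 5.12 in NC TNF, 4.05 in siEZH1 PBS, 4.14 in siEZH1 TNF, 6.27 in siUXT PBS and 6.23 in siUXT TNF. It was lowest in both siEZH1 libraries, but the depletion of its RNA was shallow. EZH1 in siUXT TNF was 1.51 times its level in siEZH1 TNF (log2 difference 0.49), and part of that distance came from the siUXT side, where EZH1 lay above NC TNF. In bulk RNA, fewer depleted cells and a weaker depletion per cell cannot be told apart.

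Under TNF the 2 knockdowns left closely similar RNA levels, and each was nearly as close to NC TNF. Of the 10960 protein-coding loci, 21 (0.192%) were at least 2-fold higher in siUXT TNF and 15 (0.137%) at least 2-fold lower. At 1.5-fold, 228 (2.08%) were higher and 132 (1.2%) lower. The middle 95% of protein-coding loci differed by between -0.49 and 0.56 on the log2 scale, and the median was -0.0023. The spread narrowed only slightly with level, from -0.55 to 0.63 for loci of 1 to 5 FPKM to -0.40 to 0.50 for loci of at least 100 FPKM. Including loci that do not code for protein raised the counts to 54 higher (0.458%) and 34 lower (0.288%) of 11787, and 17 of the former and 11 of the latter were small RNAs. Against NC TNF, the middle 95% of protein-coding loci ran from -0.58 to 0.61 for siUXT TNF and from -0.70 to 0.64 for siEZH1 TNF. The similarity is thus not particular to the knockdown pair, and an effect shared by both knockdowns was not tested.

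**Figure D1:**
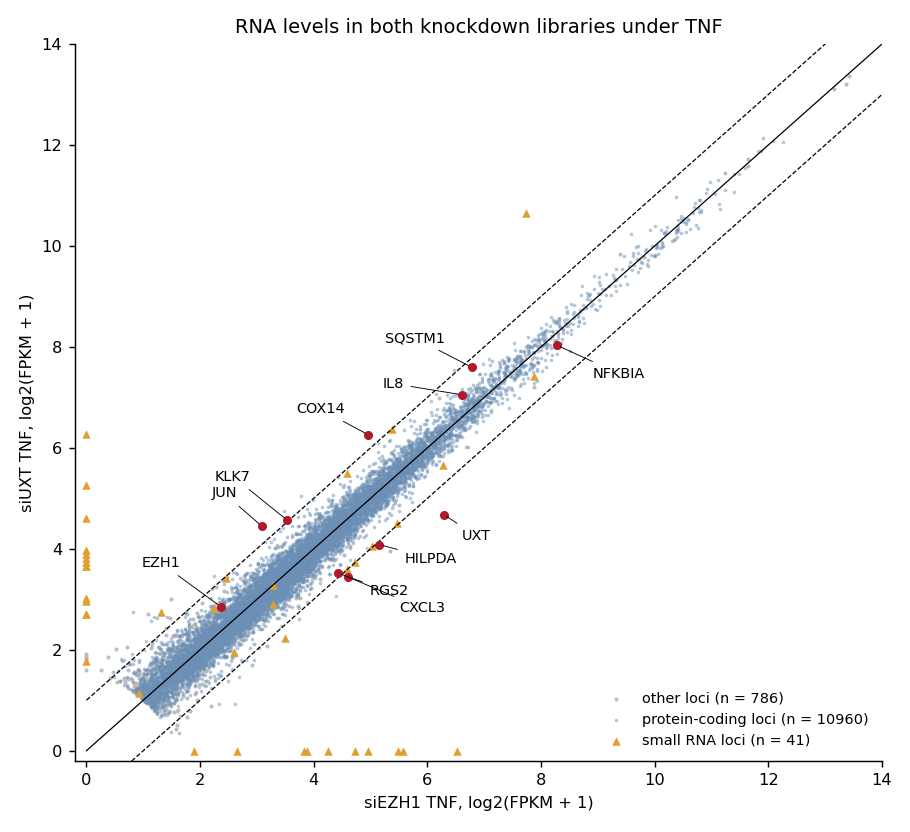
RNA level in siUXT TNF (vertical axis) against siEZH1 TNF (horizontal axis), both as log2(FPKM + 1), for the 11787 loci examined. The solid line marks equal levels, the dashed lines a 2-fold difference, triangles are small RNA loci and red points are named genes. Protein-coding loci hug the diagonal, UXT lies below it, JUN and COX14 above it, and many small RNAs sit on an axis because they are at 0 in 1 library.

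The PBS libraries gave a far wider contrast between the same siRNAs. There 161 protein-coding loci (1.47%) were at least 2-fold higher in siUXT PBS than in siEZH1 PBS and 1209 (11%) at least 2-fold lower, and the middle 95% ran from -1.65 to 0.92. Spearman's coefficient between the levels of both knockdowns was 0.986 with TNF and 0.903 with PBS, across 10960 loci that share a library and are not independent. With NC TNF the coefficient was 0.982 for siUXT TNF and 0.975 for siEZH1 TNF. The PBS and TNF pairs have no library in common, and their differences were related across the same loci with a coefficient of 0.485. Both pairs leaned the same way with gene span, the coefficients with span being -0.184 for TNF and -0.317 for PBS. After loci were centred by span, the coefficient between the pairs was 0.444. The part of span and of library preparation in the PBS contrast was not tested.

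Where both pairs could be set side by side, most of the larger TNF differences had the same sign without TNF. Of the 228 protein-coding loci at least 1.5-fold higher in siUXT TNF, 188 (82.5%) were also higher in siUXT PBS, 114 of them by at least 1.5-fold, while 15 were at least 1.5-fold lower there. In PBS 16.7% of all protein-coding loci were at least 1.5-fold higher and 22.3% at least 1.5-fold lower. Of the 132 that were lower with TNF, 98 (74.2%) were lower with PBS, 68 by at least 1.5-fold, and 8 were at least 1.5-fold higher. Past 2-fold, 15 of the 21 higher and 7 of the 15 lower loci had the same sign with PBS, and 14 of the 21 and 8 of the 15 had a mean under 5 FPKM. Against NC TNF, which both knockdowns share as a control, the control lay nearer to siUXT TNF than to siEZH1 TNF for 144 of the 228 higher and 87 of the 132 lower loci. Past 2-fold this held for 11 of the 21 higher and 8 of the 15 lower loci. Over all protein-coding loci, differences from NC TNF had a standard deviation across loci of 0.36 for siEZH1 TNF and 0.31 for siUXT TNF. The share nearer to siUXT TNF over all loci was not counted, so these majorities are not read as particular to the loci.

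**Figure D2:**
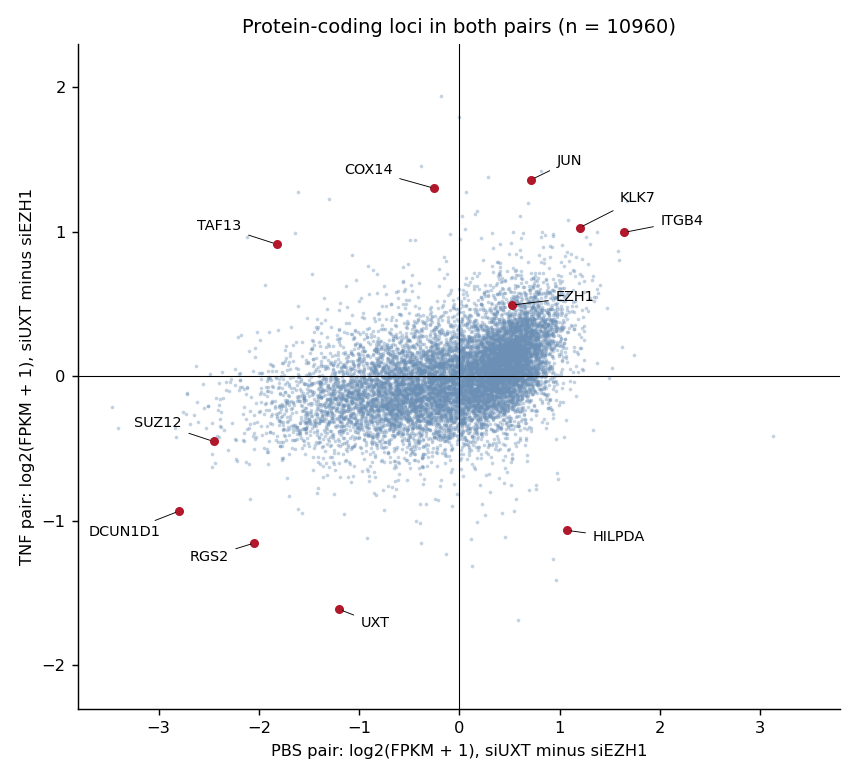
Difference of log2(FPKM + 1), siUXT minus siEZH1, in the TNF pair (vertical axis) against the PBS pair (horizontal axis) for 10960 protein-coding loci, 1 point each. The cloud is wide along the PBS axis and narrow along the TNF axis. UXT, RGS2 and DCUN1D1 are low in both pairs, ITGB4 and KLK7 high in both, and HILPDA and TAF13 differ in sign between the pairs.

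Among NF-kB targets, the CXCL1 to CXCL3 chemokines, CCL20, NFKBIA and TNFAIP3 were lower in siUXT TNF than in siEZH1 TNF, and IL8, LIF, LAMB3, PLAU and SQSTM1 were higher, each by less than 2-fold. Of 72 listed targets 51 were examined. Their median difference was 0.10, beside -0.0023 over all protein-coding loci, with 29 above 0 and 22 below. SQSTM1, LAMB3 and LIF were at least 1.5-fold higher, CXCL3 was at least 1.5-fold lower, and none differed by 2-fold. The 34 members at least 2-fold higher in NC TNF than in NC PBS divided about evenly, 15 higher and 19 lower in siUXT, with a median of -0.06. The levels of those 34 in both knockdowns lay mostly under NC TNF, 28 of them in siUXT TNF and 30 in siEZH1 TNF, with median differences of -0.39 and -0.37. Since NC TNF served to pick the 34 and is the shared control, that shortfall is not independent of the choice.

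CXCL1, CXCL2 and CXCL3 are neutrophil-attracting chemokines encoded by closely related genes in the same region of chromosome 4, and CCL20 attracts immune cells through CCR6. Their promoters are shown because the 3 CXCL genes share most of their sequence here and yet were listed with different ratios. The 120 bases before the RefSeq start are given 5′ to 3′ on the gene's strand, in build GRCh38.p14, at chr4:73869273-73869392 (plus strand) for CXCL1, chr4:74099196-74099315 (minus strand) for CXCL2, chr4:74038690-74038809 (minus strand) for CXCL3 and chr2:227813722-227813841 (plus strand) for CCL20. Capitals mark matches to the NF-kB consensus, searched on both strands with overlapping matches joined.
CXCL1: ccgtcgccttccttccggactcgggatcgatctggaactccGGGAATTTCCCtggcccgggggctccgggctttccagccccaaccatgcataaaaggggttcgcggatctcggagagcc
CXCL2: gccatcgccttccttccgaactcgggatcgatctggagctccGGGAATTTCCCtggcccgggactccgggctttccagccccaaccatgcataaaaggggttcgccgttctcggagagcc
CXCL3: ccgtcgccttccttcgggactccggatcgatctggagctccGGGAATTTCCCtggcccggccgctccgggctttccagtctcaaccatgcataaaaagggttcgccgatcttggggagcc
CCL20: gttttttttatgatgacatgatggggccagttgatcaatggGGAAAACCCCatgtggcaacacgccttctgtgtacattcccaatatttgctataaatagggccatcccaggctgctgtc
The CXCL1 and CXCL2 windows were identical at 113 of 120 aligned positions, CXCL1 and CXCL3 at 109, and CXCL2 and CXCL3 at 108. The CXCL genes carry the same GGGAATTTCCC, which ends 69 bases before the start in CXCL1 and CXCL3 and 68 bases before it in CXCL2. CCL20 carries GGAAAACCCC, which ends 70 bases before its start. Of 35116 RefSeq windows of the same length, 4.98% hold a match, and a match describes letters only and shows no binding.

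CXCL3 was listed at 0.478 FPKM in NC PBS, 21.5 in NC TNF, 0.343 in siEZH1 PBS, 20.5 in siEZH1 TNF, 0.275 in siUXT PBS and 10.5 in siUXT TNF. The level in siEZH1 TNF was close to the control and that in siUXT TNF about 0.51 times as high, a log2 difference of -0.90. CXCL1 was at 95.6 FPKM in NC TNF, 82.6 in siEZH1 TNF and 73.4 in siUXT TNF, a log2 difference between the knockdowns of -0.17. CXCL2 followed the same order with 26.4, 19.1 and 17.1 FPKM and a difference of -0.15. All 3 were thus lowest in siUXT TNF, but only CXCL3 by 1.5-fold, and reads from such similar genes can be assigned to the wrong copy. CCL20 ran from 31.6 FPKM in NC TNF to 19.8 in siEZH1 TNF and 13.8 in siUXT TNF, a difference of -0.49. CSF2, a growth factor of myeloid cells, had 4.16, 3.15 and 1.93 FPKM in the same libraries, a difference of -0.50. IL32, an inflammatory cytokine, had 5.24, 7.94 and 5.33 FPKM, so its difference of -0.50 comes with a higher level in siEZH1 TNF than in the control. Each of these genes was under 1 FPKM in every PBS library except CXCL1 in NC PBS, at 1.29 FPKM.

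IL8, the chemokine now named CXCL8, went the other way. It was listed at 0.307 FPKM in NC PBS, 149 in NC TNF, 0.447 in siEZH1 PBS, 96.5 in siEZH1 TNF, 0.321 in siUXT PBS and 132 in siUXT TNF. Both knockdowns were below the control with TNF, siEZH1 further, and the difference between them was 0.44. The inhibitors that NF-kB induces against itself did not differ in 1 direction. NFKBIA, the inhibitor that holds RELA in the cytoplasm, stood at 379 FPKM in NC TNF, 309 in siEZH1 TNF and 261 in siUXT TNF, a difference of -0.24. TNFAIP3, a ubiquitin-editing enzyme that ends the signal, stood at 37.0, 35.8 and 28.9 FPKM, a difference of -0.30. NFKBIE, a further inhibitor, was higher in siUXT TNF, with 33.2, 19.8 and 26 FPKM and a difference of 0.37.

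Values for 6 members of the same list that were higher in siUXT TNF follow. SQSTM1, an autophagy receptor, was listed at 162 FPKM in NC TNF, 109 in siEZH1 TNF and 192 in siUXT TNF, a difference of 0.82 with a similar 0.85 in the PBS pair. LIF, a cytokine of the IL6 family, had 60.6, 30.4 and 48.8 FPKM, a difference of 0.66 (PBS pair 1.24). LAMB3, a laminin chain of the basement membrane, had 32.7, 15.6 and 25.3 FPKM, also 0.66 (PBS pair 1.00). In LIF and LAMB3 the siEZH1 library was thus the one further from the control. PLAU, the urokinase that activates plasminogen, had 215, 121 and 176 FPKM, a difference of 0.53 (PBS pair 0.56). ICAM1, which binds leukocyte integrins, had 46.5, 25.5 and 30.1 FPKM, a difference of 0.23, and both knockdowns were well under the control. Its PBS difference was 0.86, at 0.958 FPKM in siEZH1 PBS and 2.55 in siUXT PBS. BIRC3, an inhibitor of cell death, exceeded the control in both knockdowns, with 32.6, 36.7 and 45.5 FPKM and a difference of 0.30 (PBS pair -0.25). NF-kB subunits differed little: NFKB1 by 0.17, NFKB2 by 0.21, RELB by 0.18 and RELA by 0.08. Of 29 genes for receptors, adaptors and kinases upstream of NF-kB, 0 differed by 1.5-fold, and the median of -0.02 changed sign without the level filter. Over all protein-coding loci 2.08% were at least 1.5-fold higher and 1.2% lower.

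**Figure D3:**
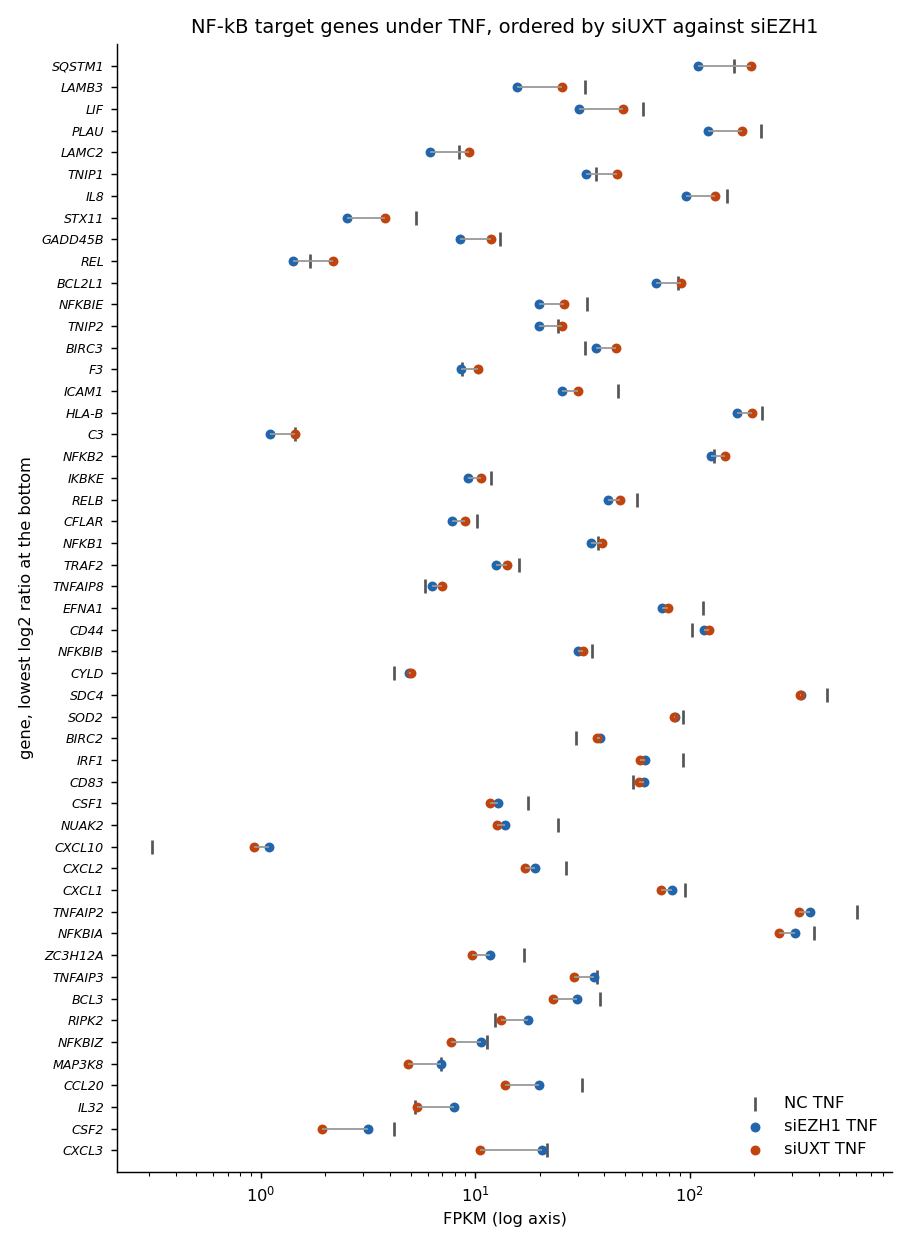
FPKM on a log axis (horizontal) of the 51 NF-kB target genes examined, in NC TNF (grey bars), siEZH1 TNF (blue) and siUXT TNF (red), ordered by the difference between the knockdowns with the lowest at the bottom. CXCL3 has the largest gap at the bottom and SQSTM1 at the top, and IL8, PLAU and LIF show siEZH1 TNF furthest from the control.

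Beyond that list, 122 protein-coding loci (1.11%) were at least 2-fold higher in NC TNF than in NC PBS. Of those 122, 12 (9.84%) were at least 1.5-fold higher in siUXT TNF than in siEZH1 TNF, beside 2.08% of all protein-coding loci, and 4 (3.28%) at least 1.5-fold lower, beside 1.2%. The median was 0.13, with 75 above 0 and 47 below. In the PBS pair the 4 lower loci differed by between -0.38 and 0.26. Of the 12 higher loci, WAPAL and RAET1L were lower in siUXT PBS, by -1.61 and -0.38. The others were higher there too, by 0.54 for FAM229A to 1.37 for FAH, beside a median of 0.08 over all protein-coding loci. The direction of most of the 12 was thus not particular to TNF. JUN, a subunit of the transcription factor AP-1, was the largest of the 12 that carried 1 symbol and a mean of at least 5 FPKM. JUN was listed at 2.39 FPKM in NC PBS, 12.8 in NC TNF, 2.20 in siEZH1 PBS, 7.49 in siEZH1 TNF, 4.27 in siUXT PBS and 20.8 in siUXT TNF. The control lay between the knockdowns, siUXT TNF being 2.78 times siEZH1 TNF (log2 difference 1.36), and the PBS pair differed by 0.72. Among those that were lower, TNFSF18, a TNF family ligand of T cells, had 3.59 FPKM in NC TNF, 6.69 in siEZH1 TNF and 2.45 in siUXT TNF, a difference of -1.16. PTP4A3, a phosphatase listed with another symbol at identical values, had 29.1, 19.9 and 7.42 FPKM, a difference of -1.31.

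Immediate early and AP-1 genes, which respond to stimuli within minutes, were mostly higher in siUXT TNF. Of 33 examined 28 lay above 0, the median was 0.17, 4 were at least 1.5-fold higher and 1 at least 1.5-fold lower, beside a median of -0.0023 and shares of 2.08% and 1.2% over all protein-coding loci. The median difference of the list from NC TNF was -0.02 for siUXT TNF and -0.29 for siEZH1 TNF. In the PBS pair the list had a median of 0.35, so its direction was not particular to TNF. CYR61, a matrix-associated signalling protein, followed JUN with 4.24 FPKM in siEZH1 TNF and 9.41 in siUXT TNF, a difference of 0.99, against 5.61 FPKM in NC TNF. FOS differed by 0.17 and JUNB by 0.22. ZFP36L2, which destabilises messenger RNAs, was lower by -0.66, with 29.3 FPKM in siEZH1 TNF and 18.2 in siUXT TNF. NR4A2, an orphan nuclear receptor outside the list, was lower too, with 5.75 FPKM in NC TNF, 7.24 in siEZH1 TNF and 3.09 in siUXT TNF, a difference of -1.01, whereas its relative NR4A1 was higher by 0.69.

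ITGB4, KLK7, IGFBP6 and FAH were among the 8 genes highest in both pairs by the naming rule. ITGB4, the integrin chain of hemidesmosomes, was listed at 36.5 FPKM in NC PBS, 37.5 in NC TNF, 18.1 in siEZH1 PBS, 20.5 in siEZH1 TNF, 58.7 in siUXT PBS and 41.8 in siUXT TNF. It was lowest in both siEZH1 libraries, and siUXT TNF was near the control, so that the difference of 1.00 with TNF came mainly from the siEZH1 side. KLK7, a chymotrypsin-like serine protease, had 13.2, 14.5, 10.4, 10.6, 25.2 and 22.6 FPKM in the same order, a difference of 1.03 with TNF and 1.20 with PBS. Here the siUXT libraries stood highest and both siEZH1 libraries lay below their controls. IGFBP6, which binds insulin-like growth factor 2, had 29.3, 34.8, 15.0, 13.6, 31.5 and 26.5 FPKM, a difference of 0.91, with the siEZH1 libraries lowest. FAH, the last enzyme of tyrosine breakdown, had 20.9 FPKM in NC TNF, 7.80 in siEZH1 TNF and 16.6 in siUXT TNF, a difference of 1.00.

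After these values were seen, 20 laminin and integrin genes and 8 kallikrein-related peptidase genes were counted. Of 19 laminin and integrin genes examined 17 lay above 0, 3 at least 1.5-fold, with a median of 0.38 (PBS pair 0.56). The lowest member was at -0.54. ITGA3, an integrin chain that binds laminins, had 87.9 FPKM in NC TNF, 53.1 in siEZH1 TNF and 91.5 in siUXT TNF, a difference of 0.77. Of 6 kallikrein genes 5 lay above 0, 3 at least 1.5-fold, with a median of 0.68 (PBS pair 0.99). KLK6 had 47.7, 33.9 and 59.7 FPKM in the same libraries, a difference of 0.80. Over all protein-coding loci 2.08% were at least 1.5-fold higher, and the median was -0.0023. Both families were picked for their direction, so the counts are a description only.

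Other single genes that were higher included COX14, an assembly factor of cytochrome c oxidase. It was listed at 86.3 FPKM in NC PBS, 50.5 in NC TNF, 73.2 in siEZH1 PBS, 30.1 in siEZH1 TNF, 61.3 in siUXT PBS and 75.6 in siUXT TNF. The level was lowest in siEZH1 TNF, with NC TNF between the knockdowns, a difference of 1.30 with TNF and -0.25 with PBS. TP53I3, a quinone oxidoreductase, had 12.5 FPKM in NC TNF, 10.0 in siEZH1 TNF and 20.4 in siUXT TNF, a difference of 0.96. IFI35, an interferon-induced protein, differed by 0.98, UBR2, a ubiquitin ligase of the N-end rule, by 0.95, and S100A10, the partner of annexin A2, by 0.92. HNRNPA1L2 differed by 0.99, but it is a near copy of HNRNPA1, so its reads may be shared. PDLIM2, a nuclear protein known to promote the breakdown of RELA, had 11.8 FPKM in NC TNF, 5.16 in siEZH1 TNF and 10.5 in siUXT TNF. It differed by 0.90 in the TNF pair and in the PBS pair. TNFRSF12A, the receptor of the TNF family ligand TWEAK, had 112, 66.1 and 121 FPKM, a difference of 0.86. LEPRE1, a collagen prolyl hydroxylase, differed by 0.90, and TINAGL1, a matrix protein, by 0.86. In PDLIM2 and TNFRSF12A the control was near siUXT TNF, as it was in ITGB4.

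Below UXT, the lowest gene by the naming rule was RGS2, which shortens G protein signals. RGS2 was listed at 25.5 FPKM in NC PBS, 11.6 in NC TNF, 45.6 in siEZH1 PBS, 23.2 in siEZH1 TNF, 10.3 in siUXT PBS and 9.88 in siUXT TNF. The siEZH1 libraries were highest with either treatment, and siUXT TNF was close to NC TNF, a difference of -1.15 with TNF and -2.04 with PBS. RGS5, of the same family, had 7.59 FPKM in NC TNF, 12.4 in siEZH1 TNF and 6.11 in siUXT TNF, a difference of -0.92. The family did not differ in 1 direction. Counted after these values were seen, 2 of 13 members examined were at least 1.5-fold higher and 3 at least 1.5-fold lower, with a median of -0.02. Over all protein-coding loci the shares were 2.08% and 1.2%.

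PPP2R5D, a regulatory subunit of protein phosphatase 2A, was listed at 32.2 FPKM in NC PBS, 32.2 in NC TNF, 30.5 in siEZH1 PBS, 32.2 in siEZH1 TNF, 22.3 in siUXT PBS and 15.6 in siUXT TNF. The 4 libraries without UXT siRNA lay between 30.5 and 32.2 FPKM and both siUXT libraries were lower, so the difference of -1.0 came from the siUXT side. CPT1A, which brings fatty acids into mitochondria, had the same pattern with 26.6 FPKM in NC TNF, 29.7 in siEZH1 TNF and 15.2 in siUXT TNF, a difference of -0.92. SLC25A13, a mitochondrial aspartate and glutamate carrier, had 7.13, 9.67 and 4.51 FPKM, a difference of -0.95. DCUN1D1, which promotes the attachment of NEDD8 to cullins, differed by -0.93, DCK, which starts the salvage of deoxynucleosides, by -0.85, DDIT4L, an inhibitor of mTOR signalling, by -0.83 and TRIM2, a ubiquitin ligase, by -0.82. These 4 were lower in the PBS pair as well, by between -2.80 for DCUN1D1 and -1.25 for TRIM2. MTMR11, a myotubularin relative, differed by -1.12 in the TNF pair but by 0.12 in the PBS pair. There siEZH1 TNF, at 12.4 FPKM, stood above the other 5 libraries, which lay between 5.14 and 7.15 FPKM.

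**Figure D4:**
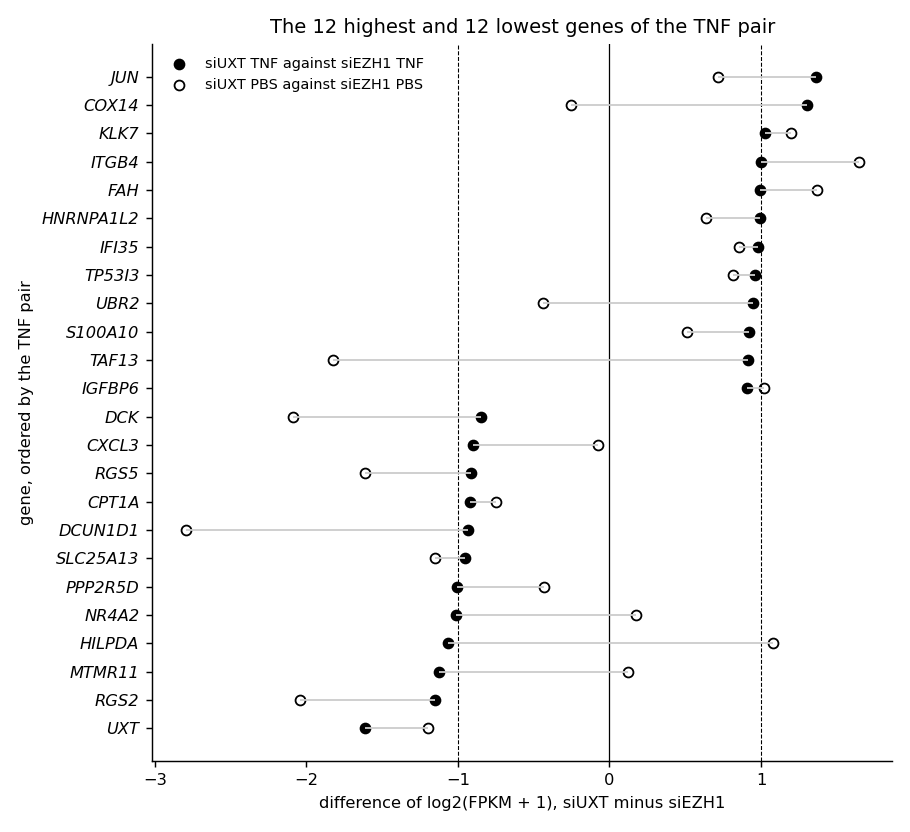
Difference of log2(FPKM + 1), siUXT minus siEZH1, for the 12 highest and 12 lowest protein-coding genes with 1 symbol and a mean of at least 5 FPKM, in the TNF pair (filled) and the PBS pair (open). Dashed lines mark 2-fold. Of the lowest genes UXT, RGS2 and DCUN1D1 are low in both pairs. HILPDA, of the lowest, and TAF13, of the highest, are among the genes whose pairs lie on opposite sides of 0.

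The complexes of both targets, like most protein-coding loci, showed little difference under TNF. Of 13 PRC2 genes examined 0 differed by 1.5-fold with TNF, and the median was -0.03. In siUXT PBS 7 were at least 1.5-fold lower than in siEZH1 PBS, and the PBS median was -0.64. Over all protein-coding loci 2.08% were at least 1.5-fold higher and 1.2% lower with TNF, and 22.3% were lower with PBS. A count of 0 with TNF is therefore not read as particular to these lists. SUZ12 was listed at 16.4 FPKM in NC PBS, 13.4 in NC TNF, 25.9 in siEZH1 PBS, 20.5 in siEZH1 TNF, 3.92 in siUXT PBS and 14.7 in siUXT TNF. It was highest in both siEZH1 libraries and lowest in siUXT PBS, and the difference was -0.45 with TNF and -2.45 with PBS. EED differed by -0.04 with TNF and -1.60 with PBS, and EZH2 by 0.11 and -0.55. Of 23 PRC1 components and H3K27 demethylases 0 differed by 1.5-fold. In the list of UXT's prefoldin-like and R2TP complexes only UXT of 17 genes did, and PFDN2, a prefoldin subunit, was next in size at 0.54. Of 13 prefoldin and CCT genes and 25 heat shock genes 0 differed by 1.5-fold with TNF, with medians of 0.03 and 0.01 against -0.38 and -0.59 with PBS. Centring by gene span turned the sign of the PRC2, prefoldin and UXT complex medians, and scaling to an equal FPKM sum that of the heat shock median, so no direction is read from them.

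HOX cluster genes and other developmental transcription factors, typical Polycomb targets, were read in the same way. Of 39 HOX genes listed 18 were examined, with a median of -0.14. At 1.5-fold 0 differed, beside 2.08% higher and 1.2% lower over all protein-coding loci. Of 30 other developmental factors TBX3 alone differed, by -0.76, with 7.15 FPKM in NC TNF, 11.2 in siEZH1 TNF and 6.21 in siUXT TNF, and the median was -0.04. SP5, a Wnt target, was lower by -0.88 with 1.84, 3.77 and 1.59 FPKM, and it was the only one of 21 Wnt feedback genes past 1.5-fold.

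The lists of DNA replication, mitotic and splicing genes had medians below 0. Of 47 DNA replication genes 42 lay below 0, with a median of -0.18. At 1.5-fold 0 differed, beside 2.08% higher and 1.2% lower over all protein-coding loci. Of 45 mitotic genes 40 lay below 0, with a median of -0.13, SPC24 alone being at least 1.5-fold higher and KIF20B at least 1.5-fold lower. Of 40 SR protein and hnRNP genes the median was -0.16, and PTBP3 alone passed 1.5-fold, at -0.65. All 3 lists were lower in the PBS pair too, with medians of -0.24, -0.62 and -0.51. With TNF the siEZH1 library lay above NC TNF in each, by a median of 0.23 for replication genes, 0.26 for mitotic genes and 0.24 for splicing genes, and siUXT TNF lay nearer to the control.

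MDM2, GDF15 and CDKN1A were picked after their values were seen. MDM2, a ubiquitin ligase, had 19.9 FPKM in NC TNF, 19.1 in siEZH1 TNF and 30.2 in siUXT TNF, a difference of 0.64. GDF15, a stress cytokine, had 205, 80.2 and 131 FPKM, a difference of 0.70 in which both knockdowns were under the control. BBC3, a trigger of apoptosis, differed by 0.61 and CDKN1A, the cell cycle inhibitor p21, by 0.45. PERP, a desmosomal protein, was lower by -0.70.

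S100 and annexin genes, most of which encode calcium-binding proteins, had 16 of 19 members above 0 and a median of 0.29 (PBS pair 0.41). S100A10 alone passed 1.5-fold. MHC class I and antigen presentation genes had a median of 0.23 over 21 members (PBS pair 0.41), with 3 at least 1.5-fold higher, beside 2.08% of all protein-coding loci, and 0 lower. Its highest members were ULBP2 at 0.66 and HLA-F at 0.63, and its lowest ULBP3 at -0.46 and ERAP1 at -0.30. Nuclear genes of the respiratory chain had 64 of 77 above 0 and a median of 0.13 (PBS pair 0.19), with NDUFA7 alone past 1.5-fold at 0.80. Proteasome subunits had a median of 0.11 over 35 members (PBS pair 0.17). Cytoplasmic ribosomal protein genes (80), mitochondrial ribosomal protein genes (75), glycolysis and hypoxia genes (34) and tight junction and epithelial genes (34) had 0 members past 1.5-fold, with medians between -0.03 and 0.07. Over all protein-coding loci 2.08% were at least 1.5-fold higher and 1.2% lower. Of 35 interferon-stimulated genes only IFI35 passed 1.5-fold. PMVK, an enzyme of the mevalonate pathway, differed by 0.73.

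**Figure D5:**
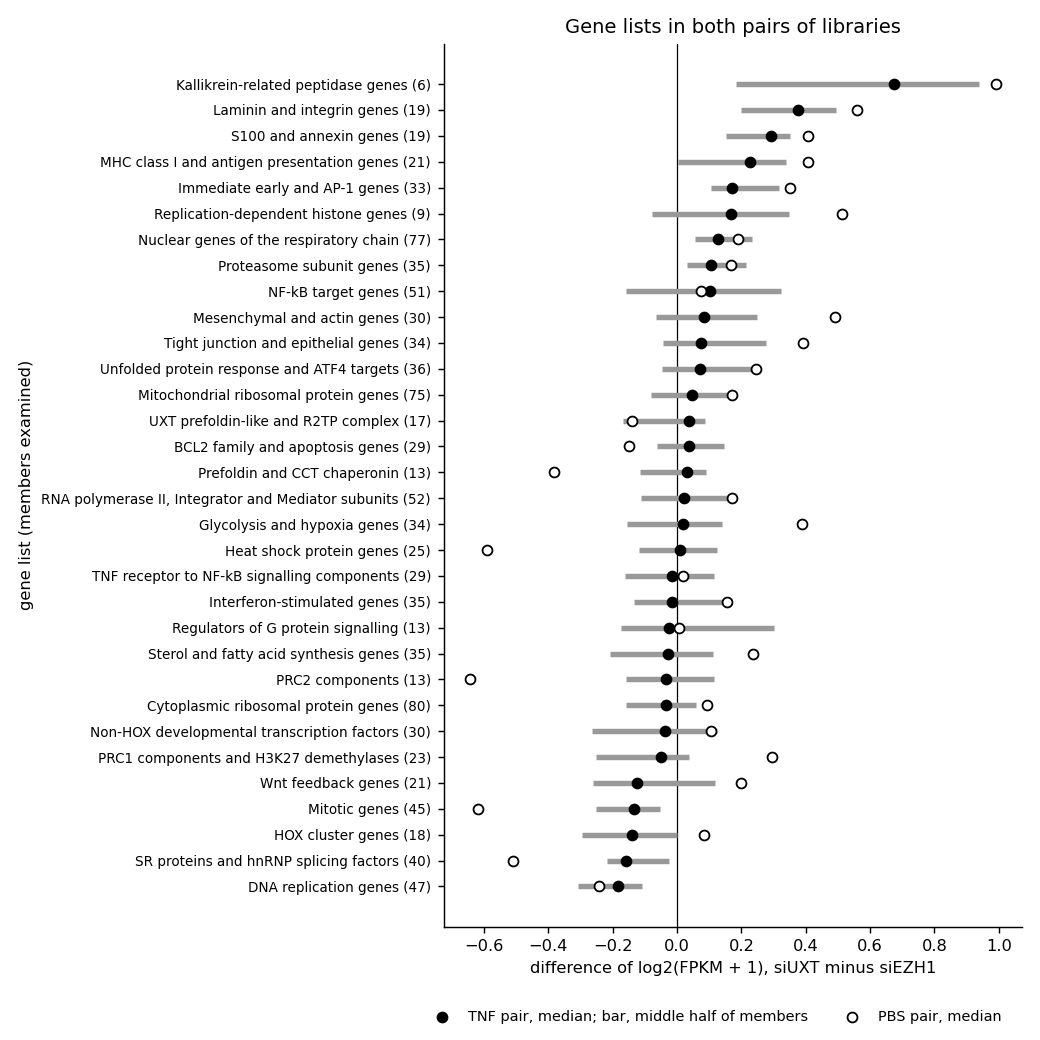
Median difference of log2(FPKM + 1), siUXT minus siEZH1, of 32 gene lists in the TNF pair (filled, with a bar over the middle 50% of members) and in the PBS pair (open). TNF medians lie between -0.18 for DNA replication genes and 0.68 for kallikrein genes, and PBS medians spread further, down to -0.64 for PRC2 genes. The laminin and integrin, kallikrein and G protein regulator lists, 3 of the 32 drawn, were added after values had been seen.

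Small RNAs made up much of what lay past 2-fold outside protein-coding loci. Of 41 small RNA loci 17 (41.5%) were at least 2-fold higher in siUXT TNF and 11 (26.8%) at least 2-fold lower. Within the TNF pair, 10 of these 41 were at 0 only in siUXT TNF and 14 only in siEZH1 TNF, whatever their level in other libraries. A locus at 0 in 1 library of the pair passes the level limit only where the other is high enough to be past 2-fold. These 24 calls were therefore fixed by the limit and say nothing about the siRNAs. Y_RNA was listed at 76.5 FPKM in siUXT TNF, at 61.9 FPKM in siEZH1 PBS and at 0 in every other library. 5S_rRNA was at 91.1 FPKM in siEZH1 TNF and at 0 in every other library. Of the 17 loci above 0 in both siUXT TNF and siEZH1 TNF, 4 were past 2-fold, and 11 of the 41 were above 0 in all 6 libraries. The libraries were made from RNA selected for poly(A) tails, per the labels' protocols, and the part of that selection in these values was not tested.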

How the data were processed

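RNA-seq of 6 conditions in HCT116 cells was taken from the tables the authors deposited, with 1 library per condition. The deposited FPKM values are listed by gene symbol. Per the submitters' processing notes, the build was hg19 and FastQC, cutadapt, TopHat2 and Bowtie were among the tools. A program that computed FPKM, or its annotation, was not named (not given in the sources used here). FPKM are already scaled to library size, so fragment counts were not tested. Only relative depth could be read, from the steps between values under 0.4 FPKM (tolerance 2%).

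Gene types, gene spans (start to end) and promoters came from RefSeq tables (GRCh38.p14), which matched 22789 of 28502 symbols. The files use another build, so only the promoter windows are printed with coordinates. Symbols with identical values were merged, and log2(FPKM + 1) was compared where the mean of both libraries was at least 1 FPKM. Calculations ran in Python 3.11.15 with pandas 2.3.3, scipy 1.17.1 and numpy 2.4.6, figures in matplotlib 3.10.9, and the computation was tested on simulated data.

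Named genes are the 12 highest and 12 lowest, the 8 most different in the same direction in both pairs and the 3 nearest to the 2-fold limit on each side, all among protein-coding loci with 1 symbol and a mean of at least 5 FPKM. The 2 highest and 2 lowest members examined of each of 32 gene lists, whatever their level and number of symbols, and 14 genes named in any case were added. Other genes were named after their values were seen. The comparison, the genes and the lists were chosen with earlier results of these data known.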

Additional observations from a re-analysis of the deposited data

Results flagged for a closer look

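Among the named genes, 3 differed by at least 1.5-fold in opposite directions in the TNF pair and the PBS pair. With 1 library per condition the difference between the pairs was not tested. HILPDA, a lipid droplet protein, differed by -1.07 with TNF and 1.08 with PBS, and its highest level was 53.2 FPKM in siUXT PBS against 20.3 to 34.5 FPKM in the control and siEZH1 libraries. DNAJB9, a chaperone of the endoplasmic reticulum, differed by 0.67 with TNF and -1.03 with PBS. TAF13, a subunit of the general transcription factor TFIID, differed by 0.91 with TNF and -1.82 with PBS. DNAJB9 and TAF13 were lowest in siUXT PBS, at 1.68 and 3.74 FPKM, and highest in siUXT TNF, at 6.29 and 23.8 FPKM. The PBS pair also differed widely over all genes, with 11% of protein-coding loci at least 2-fold lower in siUXT PBS than in siEZH1 PBS. Neither library was compared with NC PBS over all loci, and the part of either in these differences was not tested.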

How the results depend on the processing

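No paired analysis was possible because each condition has 1 library and the labels carry no replicate numbers. The 54 loci at least 2-fold higher became 121 with a pseudocount of 0.1, 84 with 0.5, 18 at a mean of at least 5 FPKM and 21 among protein-coding loci alone, where centring by gene span gave 24. The 34 lower loci became 81 with a pseudocount of 0.1, 18 at a mean of at least 5 FPKM and 15 among protein-coding loci alone, where span centring also gave 15. Dropping the filter, size factors, an equal FPKM sum and loci with 1 symbol kept both counts within 1.5 times. Span centring and the limit to 1 symbol were chosen after seeing the data. UXT stayed between -1.65 and -1.61 and EZH1 between 0.48 and 0.58. Over 620 values for 155 named genes under other pseudocounts and scalings, 5 moved, each at a pseudocount of 0.1, and 0 changed sign. Over 244 list medians 12 changed sign, 7 of them under span centring, and 2 moved. The G protein regulators went from -0.02 to -0.14 at a mean of at least 5 FPKM, and the fibroblast and endothelial markers from 0.21 (1 gene) to -0.01 (6 genes) without the filter. The largest shift was in the kallikrein list, from 0.68 to 0.99 at a mean of at least 5 FPKM, which left 3 genes. Relative depth limits genes near 1 FPKM most, and no alternative replaces replicates.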
